A study of Mus musculus with 22 samples.

Results

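The set described here holds 5000 short intervals of open chromatin from a mouse hepatoblastoma with YAP1 switched on. They were chosen from the interval list of the YAP1 ON library, 829850 intervals in all, of which 822742 lie on chromosomes 1 to 19 and X. Of these, 151404 (18.4%) shared no base with any interval of 4 other lists: days 14, 33 and 64 without YAP1, and liver. The 5000 with the highest score in the authors' list, 3.3% of those 151404, are the members. Absence from the other lists and the score were therefore fixed by the choice and are given as descriptions only. The members' scores ran from 90 to 2064 with a median of 122. At the lowest score of 90 there were 30 members and 85 intervals left outside, and the next score below was 89. The working description of the set was "regions absent later and in liver", and the intervals went against it. A member lay a median of 9 bases from the nearest interval of another list, so most members were short intervals directly beside chromatin that was also listed as open in another condition. Only 578 members (11.6%) lay 1 kb or more from every interval of day 33, day 64 and liver.

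Open chromatin was mapped by Omni-ATAC, an assay whose transposase tags the DNA it can reach in nuclei, with 1 library each for 5 conditions: YAP1 on, YAP1 off for 14, 33 and 64 days, and liver labeled WT. With 1 library a condition, no difference between lists has a replicate check. RNA was measured in 4 tumors of a mouse kept on doxycycline (YAP1-on tumors), 4 tumors of a mouse 6 days off doxycycline (day 6 tumors), 3 mice with hbHep at days 114, 117 and 121, and liver of 3 mice on the drug NTBC (FAH liver). Both tumor groups carried the CAG-rtTA3 transgene, a doxycycline-dependent activator under a promoter that is active in most tissues, in a B6N.FVB background. Both hbHep and FAH liver mice carried the exon 5 deletion of Fah, an enzyme of tyrosine breakdown, so strain and genotype differ from the tumors. Since all tumors of a group carry 1 mouse code, a difference between the 2 mice cannot be told apart from one of treatment. The p-values measure the spread between tumors of 1 mouse pooled with that between mice. The title of the series speaks of tumor cells that turn into hepatocyte-like cells once YAP1 is inhibited, and hbHep is the labels' name for the tissue of that later time. The Yap1 gene served as the check of the labels. Its RNA abundance was 5263, 9763, 7842 and 10750 in YAP1-on tumors, and it ranged from 1095 to 1248 after 6 days off doxycycline, from 937.1 to 1308 in hbHep and from 1136 to 1356 in FAH liver. The YAP1-on tumors did not overlap any other group (exact permutation test, two-sided, p = 0.0286 for each, the smallest these group sizes allow).

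YAP1 is a coactivator that the Hippo kinases hold in the cytoplasm. When they are inactive it enters the nucleus and binds TEAD factors, which read the motif GGAATG, mostly at enhancers and often beside AP-1 sites (TGANTCA). Its textbook targets include Ankrd1, Ccn1, Ccn2 and Amotl2, and in the liver it keeps cells in a progenitor and bile-duct-like state. Accessible DNA marks promoters and enhancers that are free of nucleosomes, and bound proteins can interrupt an accessible stretch, so one regulatory element can be written as several short intervals.

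The promoters of 4 genes show the kinds of member found. Each line gives the 250 bases before the gene start, 5′ to 3′ on the gene's strand, from RefSeq on GRCm38.p6, the build that mm10 also names, with the bases inside members in capitals. Ankrd1 (chr19:36119845-36120094, minus strand) had members in chromatin listed as open with YAP1 on and partly at day 14, but in none of the later lists. Spp1 (chr5:104434861-104435110, plus strand) was the most abundant in RNA of the 10 genes with members that fell most. Klhl31 (chr9:77636482-77636731, plus strand), chosen after its values were seen, had no other list within 1 kb of its 3 promoter members. Ccn1 (chr3:145649986-145650235, minus strand) had all 4 other lists within 12 bases of its members.
Ankrd1: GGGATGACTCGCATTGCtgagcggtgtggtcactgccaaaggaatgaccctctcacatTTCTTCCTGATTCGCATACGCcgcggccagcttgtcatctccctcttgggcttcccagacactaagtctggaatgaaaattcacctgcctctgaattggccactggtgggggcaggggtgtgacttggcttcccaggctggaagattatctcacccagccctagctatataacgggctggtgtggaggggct
Spp1: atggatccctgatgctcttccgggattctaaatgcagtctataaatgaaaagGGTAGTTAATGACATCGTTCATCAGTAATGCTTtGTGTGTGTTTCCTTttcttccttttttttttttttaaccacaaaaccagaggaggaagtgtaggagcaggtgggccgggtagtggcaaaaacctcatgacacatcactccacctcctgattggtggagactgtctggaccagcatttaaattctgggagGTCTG
Klhl31: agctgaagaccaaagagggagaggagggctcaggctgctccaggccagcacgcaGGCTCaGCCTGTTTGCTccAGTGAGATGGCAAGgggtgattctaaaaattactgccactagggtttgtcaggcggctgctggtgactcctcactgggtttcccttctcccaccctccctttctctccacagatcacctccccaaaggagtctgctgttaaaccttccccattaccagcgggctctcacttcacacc
Ccn1: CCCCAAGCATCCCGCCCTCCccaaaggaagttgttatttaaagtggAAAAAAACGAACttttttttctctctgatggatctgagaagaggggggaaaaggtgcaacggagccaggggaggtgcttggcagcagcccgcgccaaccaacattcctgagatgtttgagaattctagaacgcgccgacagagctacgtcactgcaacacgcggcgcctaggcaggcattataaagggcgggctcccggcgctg
The Ankrd1 stretch held the TEAD motif starting 210 and 123 bases before the start, and the Ccn1 stretch held it on the other strand 103 bases before the start. Neither the Spp1 nor the Klhl31 stretch held it, and no AP-1 motif was found in any of the 4. None of these TEAD matches shared a base with a member.

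Most members were narrow and lay close beside intervals of the other lists. Their median width was 12 bases (quartiles 8 and 19, range 5 to 99), against 21 bases over the whole YAP1 ON list and 67, 71, 70 and 61 bases in the day 14, day 33, day 64 and liver lists. The YAP1 ON list also covered less of the genome, 19.7 Mb against 36.7 to 71.7 Mb. The median gap from a member to the nearest interval was 16 bases for day 14, 25 for day 33, 25 for day 64 and 30 for liver. To the nearest of the 4 lists it was 9 bases (quartiles 4 and 20), and 4693 members (93.9%) had one under 100 bases away. All 4 lists lay under 100 bases away for 3545 members (70.9%), and 2723 (54.5%) had all 4 lists on both sides within that distance. The score and the width bear on this: among all intervals of the YAP1 ON list, 39.9% of those with a score under 20 shared no base with another list, against 1.66% of those with a score of 200 or more, and 22.2% of those of 5 to 9 bases against 11.3% of those of 40 bases or more.

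**Figure D1:**
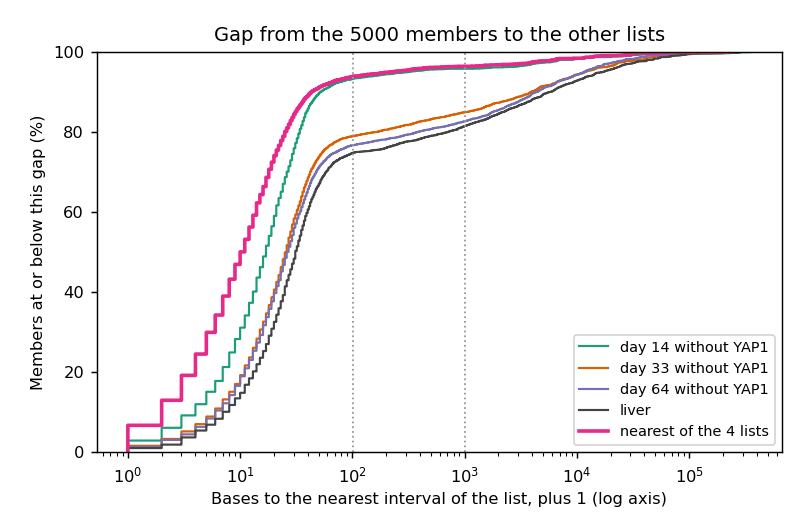
Cumulative share of the 5000 members (vertical axis, %) whose gap to the nearest interval of each list is at most the value on the horizontal axis (bases plus 1, log axis); dotted lines mark 100 bases and 1 kb. At 100 bases the line for the nearest of the 4 lists stands at about 93.9%, and the lines for day 33, day 64 and liver lie below that for day 14.

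By their gaps the members fall into 3 kinds. The first, 3545 members with all 4 lists under 100 bases away, are called embedded here. The second, 578 members (11.6%), had day 33, day 64 and liver all 1 kb or more away, and are called late-distant. Of these, 399 had day 14 nearer than 1 kb, and 179 (3.58% of members) had all 4 lists 1 kb or more away. The other 877 members lay between. Day 14 was rarely the list that was far: 209 members (4.18%) had it 1 kb or more away, against 752 (15%) for day 33, 865 (17.3%) for day 64 and 927 (18.5%) for liver. Intervals below the 5000 by score lay farther from the other lists, with a median of 141 bases to the nearest and 21.8% at 1 kb or more. These numbers use 1 library a list, and lists of unequal coverage leave unequal room between intervals.

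Many members lay beside one another. Joined where under 1 kb apart, they formed 3572 loci, of which 2664 held 1 member, 635 held 2 and 273 held 3 or more, so members of a locus share their source. The late-distant members gave several compact loci. The locus at the Ankrd1 start (chr19:36119484-36120230) held 9 members in 747 bases. One of 13 members (chr11:95981920-95982797) had no other list within 5835 bases. The nearest start used was that of Gip, the gene of an incretin hormone, with the closest member 41777 bases upstream. Gip abundance was 0 in every YAP1-on tumor and at most 0.9193 in day 6 tumors. A locus of 11 members lay inside Aoah, which encodes a lipase that inactivates bacterial lipopolysaccharide (chr13:20828892-20829380, 34786 bases past the start), with no other list within 30542 bases. Another of 11 (chr17:35758794-35759228) had 4833427F10Rik as its nearest gene, and one of 7 lay near Cd33, a receptor of myeloid cells (chr7:43530303-43530630). The locus with the most members, 43 in 4331 bases, lay on chromosome 18, where no gene start was used. Of its members 17 were late-distant, the most of any late-distant locus, and its nearest interval of another list was 6 bases from a member. Not all loci were of this kind: the 9 members at Arhgap1 (chr2:91656065-91656905), a GTPase regulator, had day 33 intervals 38 to 674 bases away and day 64 intervals 28 to 838 bases away, with liver at least 4048 bases away.

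Position relative to gene starts followed the score and the gaps. Gene starts were RefSeq's, 32851 starts of 27025 genes. They included none on chromosome 18, so 191 members had no start and 4809 did. The starts may be incomplete on other chromosomes too. Members at chr15:37232517-37234327 spanned one end of Grhl2 (chr15:37232821-37363569), yet their nearest start was that of Gm41302, at least 64222 bases away. Nearest genes, and the counts built on them, therefore hold for the starts used. Of the 4809 members, 1795 (37.3%, exact 95% binomial interval 36.0 to 38.7) lay under 1 kb from a start, with a median distance of 4887 bases. The share was 60.1% (56.9 to 63.3) in the 1000 highest members and 2.34% (0.641 to 5.88) in the 179 members with all 4 lists 1 kb or more away. It was 7.79% in the intervals without overlap below the 5000, 20.9% in the whole list, and 67.2% (65.8 to 68.5) in a reference set, the 5000 highest intervals that overlapped all 4 lists. Intervals cover counting error only. The members lay inside protein-coding genes in 64% of cases against 64.7% for the whole list. Chromosome X held 0.74% of the members, 0.66% of the reference set and 2.56% of the whole list.

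**Figure D2:**
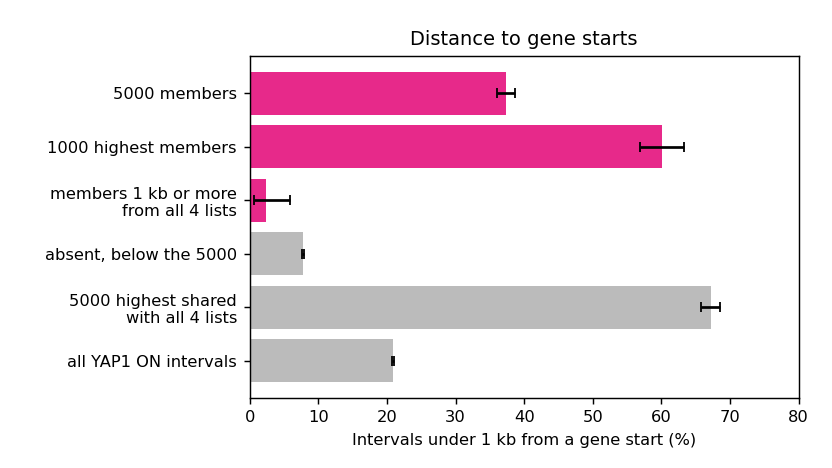
Share of intervals under 1 kb from a RefSeq gene start (horizontal axis, %) for 3 sets of members (magenta) and 3 comparison sets of the same list (gray); error bars are exact 95% binomial intervals. The share is 37.3% in all members, 60.1% in the 1000 highest and 2.34% in those 1 kb or more from all 4 lists.

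The members of the highest scores were embedded. The highest score, 2064, belonged to an interval of 12 bases with day 64 directly beside it, whose nearest start was that of Csf2ra, a receptor chain for a myeloid growth factor, 38514 bases away. Among the other 9 of the top 10 were intervals at the starts of Rras (score 1021), a small GTPase, Zyx (919), a focal adhesion protein, Ntan1 (822), the glycolytic enzyme Eno1 (743), the Wnt receptor Fzd5 (692) and Fyco1 (646), an adaptor of vesicle transport. None of the top 10 lay more than 9 bases from the nearest list. Zyx sat between intervals of day 14, day 33, day 64 and liver at 14, 5, 3 and 2 bases.

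Promoter windows allowed a look at sequence. These were RefSeq windows of 300 bases, 250 before and 50 after a start, and 422 of the 32851 shared a base with a member. GGAATG on either strand stood in 49 of the 422 (11.6%, exact 95% interval 8.71 to 15.1), against 14.7% of all windows, 12.5% of the 15236 windows that share a base with any YAP1 ON interval and 124 of 1235 windows of the reference set. The AP-1 letters TGANTCA stood in 23 (5.45%, 3.49 to 8.07), against 7.81%, 5.57% and 3.24%. The TEAD and AP-1 shares in members' windows were thus close to those of all YAP1 ON windows. Windows with members held 62.4% G and C, all windows 53.8% and reference windows 65.8%. Of the letters counted, those of CTCF (AGNNGGCGC), a factor that folds chromatin into loops, stood in 14.7% of members' windows and 12.1% of all YAP1 ON windows, and those of ETS factors (CCGGAAGT) in 6.87% and 7.17%. The letters of RUNX factors (TGTGGTT) departed more from all YAP1 ON windows, with 1.66% (exact 95% interval 0.669 to 3.39) against 3.99%. In the reference windows the RUNX share was 2.35% (1.58 to 3.36), inside the interval of the members' windows. The letters of PU.1 (GAGGAAGT) stood in 4.98% (3.11 to 7.51), against 3.24% of all YAP1 ON windows and 2.91% of reference windows. Of 417 members wholly inside a window, 0 shared a base with a TEAD match, which allows a share of up to 0.719%, and 0 with an AP-1 match. The same share over all 36855 YAP1 ON intervals inside windows was 1.23% for TEAD, and those are wider. Only 6 windows held a late-distant member, of which 3 had the TEAD letters, too few for a share. Both strands were searched, matches of different motifs may overlap, and a match describes these letters and not a bound factor.

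Around 3 starts the lists looked as follows. Within 1 kb of the Ankrd1 start the YAP1 ON list had 23 intervals over 573 bases, day 14 had 4 over 211 bases, and day 33, day 64 and liver had 0. The 9 members there had scores of 110 to 199, and the nearest day 33, day 64 and liver intervals were at least 8194 bases away. Day 14 intervals lay 0 to 150 bases from them. Around the Spp1 start, YAP1 ON had 21 intervals, day 14 had 10, day 33 and day 64 had 0 and liver had 1 of 22 bases. Its 4 members at the start had scores of 96 to 109. The liver interval was 66 to 248 bases from those members, which kept them out of the late-distant kind. Around Rarg, a retinoic acid receptor, shown as an example of an embedded locus and chosen after its values were seen, the lists had 22, 15, 13, 14 and 7 intervals in the order YAP1 ON, day 14, day 33, day 64 and liver.

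**Figure D3:**
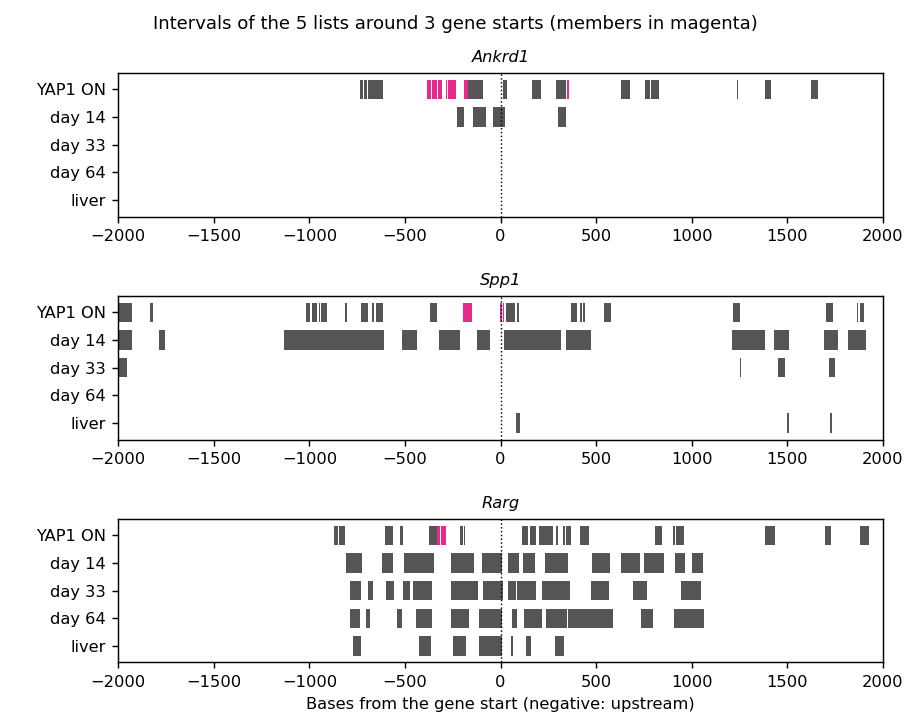
Intervals of the 5 lists (rows) within 2 kb of the starts of Ankrd1, Spp1 and Rarg (horizontal axis, bases from the start, upstream negative); members are magenta, other intervals gray, and the dotted line is the start. Ankrd1 has 0 intervals of day 33, day 64 and liver within 1 kb, whereas the members at Rarg lie between intervals of the other lists.

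RNA gave a measure that the choice of members did not use. The nearest gene start within 100 kb was taken for each member, which gave 2849 genes, 1903 of them with 1 member. Of these 1990 passed the filter on low values and were tested with limma against YAP1-on tumors, at a Benjamini-Hochberg adjusted p under 0.05 over all 17953 genes tested. In day 6 tumors 314 of the 1990 (15.8%) were lower and 297 (14.9%) were higher. Over all genes tested 10.8% were lower and 12.8% higher, and over genes nearest to the reference set 9.79% and 13.5%. Genes nearest to any YAP1 ON interval gave 11.7% and 14.2%. Those nearest to any interval without overlap, members among them, gave 12.9% and 13.4%. The median log2 change of the members' genes was -0.015, and that of all genes 0.02. In hbHep 29.8% were lower and 29.9% higher, against 26.3% and 28.8% of all genes. In FAH liver 37.3% were lower and 35.1% higher, against 34.4% and 33.5%. The share lower in day 6 tumors thus stood above that of all genes, and less far above those of genes near any YAP1 ON interval or any interval without overlap. The other 5 shares lay closer to those of all genes. All 3 comparisons share the 4 YAP1-on samples. In these bulk tissues, fewer cells of a type and less RNA per cell cannot be told apart.

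The kinds of member differed in this count. Genes nearest to embedded members stood somewhat above the background in day 6 tumors, with 13.7% lower and 16.0% higher of 1749 tested. Of embedded members 49.0% lay under 1 kb from a start, against 4.08% of late-distant ones. Embedded members 1 kb or more from a start gave 16.9% lower and 16.1% higher of 716 genes, and within 10 kb of a start 18.6% lower and 17.4% higher of 350. Of the 201 genes nearest to late-distant members 92 were tested, of which 32 (34.8%) were lower and 7 (7.61%) higher, with a median log2 change of -0.381. The other members, those between, gave 32.3% lower and 6.69% higher of 254. Late-distant members with day 14 nearer gave 37.0% lower of 73 genes, and those with all 4 lists far gave 5 of 19 (26.3%). Within 10 kb of a start the late-distant share was 17 of 36 (47.2%). A gene that passes the filter through YAP1-on tumors alone has to be lower elsewhere. With no filter the late-distant share was 28.6% of 105 genes, against 5.7% of all 30749 genes so tested. That background takes in genes of low abundance, and its share was 10.8% with the filter. The unfiltered contrast is therefore not to be set against the filtered one. In hbHep 53.3% of the 92 were lower and 13% higher, and in FAH liver 58.7% and 22.8%. The gaps that define the late-distant kind come from day 33, day 64 and liver, tissues without induced YAP1, so these comparisons describe the kinds and carry no test of the difference between them. Among all intervals without overlap that were late-distant, whatever their score, 15.6% of 5028 genes were lower in day 6 tumors and 9.57% higher.

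**Figure D4:**
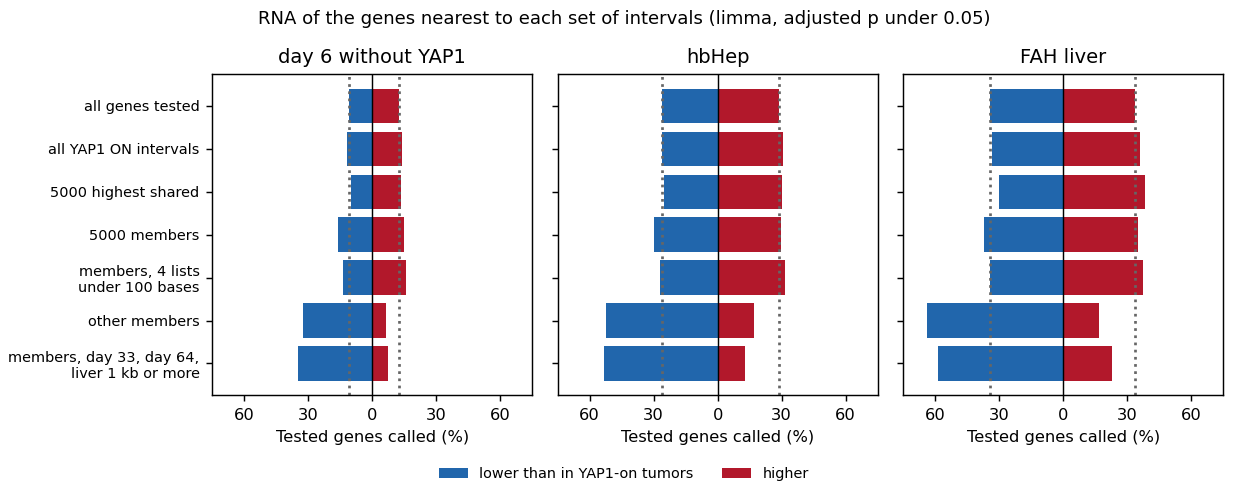
Share of tested genes lower (blue, left) or higher (red, right) than in YAP1-on tumors, for the genes nearest to each set of intervals (rows) and for all genes tested (top row, repeated as dotted lines), in day 6 tumors, hbHep and FAH liver. For day 6 tumors the members' bars (15.8% and 14.9%) reach past the dotted lines (10.8% and 12.8%), and the late-distant members have 34.8% lower and 7.61% higher.

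Most genes with the most members did not pass in day 6 tumors. LTO1 and Aoah (11 members each), Socs3 (10), Wnt4 and Arhgap1 (9 each) missed the threshold (limma adjusted p = 0.203, 0.167, 0.792, 0.0595 and 0.0584). Gip (13), 4833427F10Rik (12), Gm41302 (11) and Gm51701 (10) were not tested. Ankrd1, with 10 members, passed and carried the most of the listed YAP1 targets. It encodes an ankyrin-repeat protein that responds to mechanical stress. Its abundance was 520.0, 884.8, 562.9 and 855.5 in YAP1-on tumors and 185.1, 47.32, 231.3 and 102.8 in day 6 tumors. It was 19.36, 25.68 and 21.65 in hbHep and 4.343, 7.425 and 0 in FAH liver, so each group lay below the one before it with no overlap. The log2 change in day 6 tumors was -2.50 ± 0.556 (SE, n = 4 and 4, limma adjusted p = 0.00374). It was lower in 4 of 4 day 6 tumors than in any YAP1-on tumor.

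Spp1 encodes osteopontin, a secreted phosphoprotein and a marker of bile duct and progenitor cells. Its abundance was 32580, 33420, 27390 and 35780 in YAP1-on tumors, and 2595, 2634, 6515 and 2189 in day 6 tumors. The 3 hbHep mice lay between 812.1 and 1265, and the 3 FAH livers between 506.7 and 610.4. No groups overlapped, and day 6 tumor 3 stood above its 3 neighbors. The log2 change in day 6 tumors was -3.35 ± 0.260 (SE, limma adjusted p = 3.19e-07). Of the 12 markers of bile duct and progenitor cells Spp1 alone was the nearest gene of a member, where 10.5% of all genes with a start were. In day 6 tumors 6 of the 11 tested fell with 0 rising, against 10.8% lower and 12.8% higher of all genes tested. The summed abundance of the 12 markers was 30880 to 40700 in YAP1-on tumors and 4515 to 9530 in day 6 tumors. No marker was at 0 in all 14 samples. The part of cell makeup in the fall of Spp1 was not tested.

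Among genes with members, 10 fell most in day 6 tumors. They were Gli2, a Hedgehog transcription factor, the sulfotransferase Gal3st2, Fgfbp1, a carrier of fibroblast growth factors, Fam107a, the cell cycle gene Cdca3, the secreted phospholipase Pla2g5, Spp1, the hormone Stc2, Sapcd2, and the matrix protease Mmp7. Fgfbp1 abundance was 1857, 3358, 2353 and 2087 in YAP1-on tumors and 189.1, 111.6, 171.3 and 108.2 in day 6 tumors, without overlap. In hbHep it was 12.26 to 26.24, and in FAH liver it was listed at 0, 1.542 and 0. Its log2 change in day 6 tumors was -4.05 ± 0.321 (SE, limma adjusted p = 3.85e-07). Its 2 members lay 1248 and 1449 bases upstream of the start, with day 14 intervals 32 and 20 bases away and day 33 intervals 35 and 234 bases away. Day 64 lay 7255 and 7051 bases and liver 6153 and 5949 bases from them.

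Pla2g5 had 2 late-distant members (chr4:138819134-138819185), 85 and 115 bases past the start used. That start lies well inside the gene's span (chr4:138799247-138863562), not at its outer end. Day 33, day 64 and liver lay at least 13665 bases from these members. Pla2g5 abundance fell from 88.34 to 152.1 in YAP1-on tumors to 5.559 to 18.63 in day 6 tumors, and it was at most 2.105 in every hbHep and FAH liver sample. Gal3st2 had 1 member, 150 bases upstream, with all other lists at least 3023 bases away. Its abundance was low, at 13.8 to 25.08 in YAP1-on tumors, at most 0.3779 in day 6 tumors and at most 2.721 in hbHep and FAH liver. Gli2 fell from 37.02 to 80.52 down to 0.85 to 3.085, and its 2 members lay 112 and 810 bases past the start. Stc2 fell from 29.43 to 61.55 down to 1.906 to 5.765, with 2 members 132 and 150 bases upstream. The Gli2 member at 112 had liver 3, day 14 4, day 33 97 and day 64 114 bases away, and the one at 810 had day 14 at 13 bases and the other lists at 611 to 795. The Stc2 members had day 14 at 66 and 81 bases, day 33 at 167 and 182, day 64 at 3381 and 3360 and liver at least 121558 bases away. The log2 changes of the 10 genes, which were picked for the largest falls among those past the threshold, ran from -4.38 (Gli2) to -3.09 (Mmp7). Gli2, Gal3st2 and Stc2 reached the filter's minimum of 10 in YAP1-on tumors alone, so that lower values elsewhere came with the choice. The fall of Cdca3, from 209.1 to 376.6 down to 10.8 to 27.35, went with 2 embedded members. All 20 genes of the mitosis list fell as well, against 10.8% of all genes tested.

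Other genes with 2 or more late-distant members moved unequally. Those in this paragraph were named after their values were seen, and all of them fell. Tmem130 (3 members, closest 6064 bases past the start) fell from 122.6 to 290.4 in YAP1-on tumors down to 20.4 to 49.17 in day 6 tumors, without overlap. Fstl3, an inhibitor of activin, had 5 members 2506 to 2711 bases upstream, 3 of them late-distant. Its abundance was 366.6, 374.3, 280.6 and 511.0 in YAP1-on tumors and 46.42, 43.59, 113.5 and 37.29 in day 6 tumors. The log2 change of Fstl3 was -2.77 ± 0.354 (SE, limma adjusted p = 3.6e-05). Fam13c fell from 118.0 to 197.0 down to 16.03 to 41.12, and 3 of its 4 members lay at least 53660 bases past the start. Klhl31, with the 3 promoter members printed above and 1 other 81505 bases past the start, fell from 92.19 to 119.5 down to 15.46 to 23.96 and was 29.29 to 50.08 in hbHep and FAH liver together. Tacc3, a mitotic spindle gene with 5 members at least 16438 bases past its start, fell from 194.7 to 281.1 down to 35.49 to 40.91. All 20 genes of the mitosis list fell too, though only 2 of them were nearest to a member. Arrdc1 had 8 late-distant members 5376 to 7159 bases past its start and fell by 0.82 on the log2 scale (limma adjusted p = 0.00295). Itga3, an integrin chain that binds laminin, had 6 members, 2 late-distant, and fell by 1.37 on the log2 scale (limma adjusted p = 0.000242).

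Not every such locus went with lower RNA. Socs3, Meis2, Fahd2a, Rabgef1, Smim6 and Cacnb1 each had 3 or more late-distant members. All missed the threshold in day 6 tumors (log2 changes of -0.54 to 0.01, limma adjusted p = 0.129 to 0.982). Lcat, the plasma enzyme that esterifies cholesterol, had 4 late-distant members 7709 to 8088 bases upstream and rose. Its abundance lay between 3182 and 4916 in YAP1-on tumors and between 9500 and 12210 in day 6 tumors, without overlap. The hbHep mice were at 8798 to 11610 and the FAH livers at 13530 to 18120. The log2 change in day 6 tumors was 1.39 ± 0.157 (SE, limma adjusted p = 1.09e-05). Runx3, with 5 members, was at 10.71 to 19.06 in YAP1-on tumors and 6.965 to 16.48 in day 6 tumors, with overlap (log2 change -0.30, limma adjusted p = 0.733). Pde6b, with 6 members, had overlapping ranges of 56.62 to 68.57 and 38.4 to 60.62 (limma adjusted p = 0.189). Aoah was at 132.3 to 179.5 and 102.6 to 114.0, which did not overlap, with a log2 change of -0.54 that missed the threshold (limma adjusted p = 0.167). It passed when only these 2 groups entered the fit (adjusted p = 0.00976). Cd33, with 7 late-distant members, fell from 426.1 to 520.7 down to 143.0 to 226.1 (limma adjusted p = 0.00417). Aoah and Cd33 are known from myeloid cells. The summed abundance of the 12 macrophage markers was 26150 to 36910 in YAP1-on tumors and 15290 to 19220 in day 6 tumors. Of the 12, 2 were lower and 0 higher in day 6 tumors, against 10.8% and 12.8% of all genes tested. None of the 12 was at 0 in all 14 samples. The part of myeloid cells in the values of Aoah or Cd33 was not tested.

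**Figure D5:**
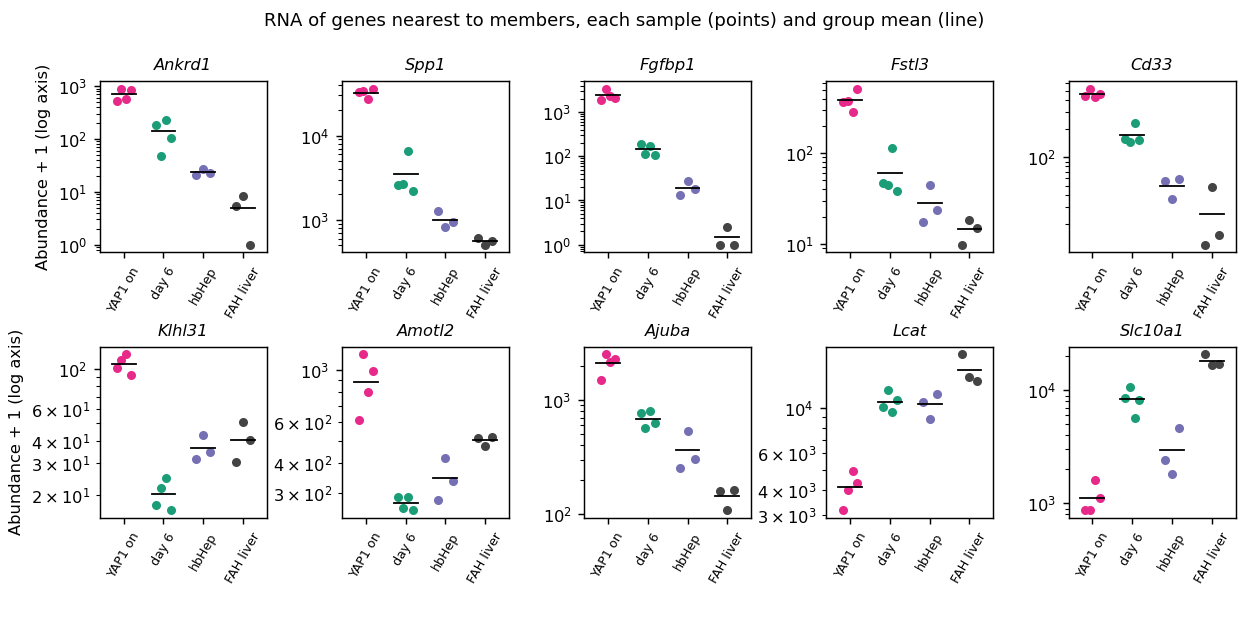
RNA abundance plus 1 (log axis) of 10 genes nearest to members, each sample as a point and each group's mean as a line, in YAP1-on tumors, day 6 tumors, hbHep and FAH liver. Ankrd1, Spp1, Fgfbp1 and Fstl3 fall from left to right, Klhl31 and Amotl2 are lowest in day 6 tumors, and Lcat and Slc10a1 are higher in each group than in YAP1-on tumors.

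Among the 32 YAP1 targets listed here Ankrd1 alone had late-distant members. Of 32 listed targets 8 were the nearest gene of a member, with 32 members among them, whereas 10.5% of all 27025 genes with a start were nearest to a member. Of 31 tested, 20 fell and 3 rose in day 6 tumors, where 10.8% of all genes tested were lower and 12.8% higher (median log2 change -1.17, against 0.02 over all genes). Amotl2, which binds YAP1 and holds it in the cytoplasm, had 7 members and Gadd45b, a stress response gene, had 5. The 7 of Amotl2 were embedded, with all 4 lists 0 to 52 bases away. Amotl2 abundance fell from 612.2 to 1159 in YAP1-on tumors down to 252.3 to 286.7 in day 6 tumors, with 279.4 to 420.7 in the hbHep mice and 471.9 to 518.0 in the FAH livers. Gadd45b fell from 249.6 to 387.4 down to 82.45 to 115.8. Ajuba, a LIM protein that restrains the Hippo kinases, had 5 members 1977 to 4538 bases past its start and fell from 1484 to 2503 down to 563.1 to 799.5. Lats2, the kinase that inactivates YAP1, had 1 embedded member 69312 bases past its start and fell by 0.69 on the log2 scale (limma adjusted p = 0.000568). Ccn1 and Ccn2, matricellular targets, were the nearest gene of no member. The 2 members in the Ccn1 promoter were nearer to the start of Gm17501. Ccn1 fell by 1.04 and Ccn2 by 2.49 on the log2 scale (limma adjusted p = 0.00103 and 2.12e-08). RNA thus fell at Amotl2, whose members were embedded, and at Ccn2, with no member nearest to it.

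The counts of the other lists are read against the same shares of all genes: 10.5% nearest to a member, and 10.8% lower and 12.8% higher in day 6 tumors. The Hippo pathway and YAP1 partner list had 5 of 24 genes nearest to a member, and 11 of 23 tested fell with 1 rising. Tead1 and Tead4, the DNA-binding partners of YAP1, fell by 1.38 and 1.81 on the log2 scale (limma adjusted p = 0.0036 and 0.000332) with no member nearest to either. Of the cytoskeleton, adhesion and matrix list 9 of 26 genes had members, with 12 falling and 0 rising. Stellate cell and fibroblast markers moved the same way, with 5 of 12 falling and 0 rising (median log2 change -0.37). Their summed abundance was 8192 to 15020 in YAP1-on tumors and 9982 to 14390 in day 6 tumors. None of these markers was at 0 in all 14 samples, and their part in the matrix list was not tested. Of the AP-1 factor list 6 of 14 had members, and all 7 of these members were embedded. Of 13 tested AP-1 factors 2 fell and 0 rose, among them Maff, a small Maf protein, which fell by 1.19 on the log2 scale (limma adjusted p = 1.47e-05) with 1 member 168 bases upstream. The epithelial and progenitor factor list had 6 of 24 with members, and 4 fell and 2 rose of 23 tested. Of the mitosis list only Birc5 and Cenpe, 2 of 20, had a member, a share near that of all genes.

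Genes of mature hepatocytes also had members. Hepatocyte transcription factors had 9 members at 5 of 22 genes, all 9 embedded, with 7 of the 22 rising and 1 falling in day 6 tumors, against 12.8% and 10.8% of all genes tested and 10.5% of genes nearest to a member. Hnf4a, a master regulator of hepatocytes, had 1 embedded member 362 bases past a start. Its abundance was 1280 to 2079 and 2207 to 2850, without overlap, and its rise of 0.47 (limma adjusted p = 0.0476) was lost under 11 of the alternative settings. Of 20 hepatocyte enzymes and secreted proteins 3 had a member, and 11 of 19 tested rose with 0 falling. The 5 genes with members that rose most were Slc10a1, the bile acid importer of hepatocytes, the oxidase Aox3, the chaperone Rtp3, the acetyltransferase Nat8f1 and Ang, a secreted ribonuclease. Slc10a1 lay between 870.3 and 1625 in YAP1-on tumors and between 5748 and 10780 in day 6 tumors. The hbHep mice were at 1829 to 4638 and the FAH livers at 16670 to 20840, so no groups overlapped. Its member lay 65299 bases upstream, with all 4 lists 7 to 26 bases away. The other 4 rose by 2.20 (Ang) to 2.75 (Aox3) on the log2 scale, each past the limma threshold. The members at these 5 genes were all embedded, that is, under 100 bases from intervals of day 14, day 33, day 64 and liver.

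Of the lists of other cell types, those of stellate cells, endothelial cells, macrophages, lymphocytes, neutrophils and red cell precursors had 0 genes nearest to a member, in lists of 10 or 12 genes, where 10.5% of all genes were. The summed abundance of endothelial markers was 7000 to 8680 in YAP1-on tumors and 7856 to 11080 in day 6 tumors. Hepatocyte markers summed to 234100 to 410100 in YAP1-on tumors, 493900 to 616600 in day 6 tumors, 440600 to 647100 across the hbHep mice and 1049000 to 1206000 across the FAH livers, the highest of the 4 groups.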

How the data were processed

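Open chromatin was profiled in 5 ATAC libraries, 1 a condition, and RNA in 17 libraries. Per the submitters' processing notes, the ATAC tools were bcl2fastq, cutadapt, BWA, SAMtools and Picard on mm10, and RNA was quantified on GRCm38.p6 with kallisto 0.45.0, beside sleuth. How intervals were called is not given in the sources used here. Intervals were used as deposited. The authors deposited the YAP1 ON list with a whole-number score per interval, whose meaning no source states, and in another layout than the other 4 lists. It only ranks intervals within that list. An overlap of 1 bp counted as shared. Depth of the ATAC libraries is unknown from these lists.

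The authors deposited RNA as a normalized signal per gene, which is not a count, so read depth is unknown and no counting interval was set on RNA. Technical libraries of 1 mouse were averaged, leaving 14 samples, which were scaled by median-of-ratios factors (0.9632 to 1.1) to what is called abundance. Genes with at least 10 in at least 3 samples were tested, 17953 of 36555. limma 3.58.1 (R 4.3.3, with trend) was fitted to log2(abundance + 1) over all 4 groups, so fold changes of low genes are understated, with Benjamini-Hochberg adjustment over all genes tested and a threshold of 0.05. The fit was tested on simulated data. Yap1 was also tested by an exact permutation test on the difference in mean log2(abundance + 1).

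The members, lists and tests were chosen with earlier results of these data known. Genes named were drawn from the nearest genes of the 10 highest scores and of the most members, the 10 that fell most and the 5 that rose most, up to 6 a gene list by number of members, motif factors and Yap1. Not all genes of these rules are described. Others, among them genes with several late-distant members, were chosen after their values were seen, as were the 3 kinds of member. Motifs were planned in windows around the members. No genome was used here, so RefSeq promoter windows on GRCm38.p6 were used instead. Alternatives were other sets of members, another distance to a start, another pseudocount (10), no filter, other scalings, only the groups compared, a replicate block and leaving out each sample.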

Additional observations from a re-analysis of the deposited data

Results flagged for a closer look

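In 6 of 86 groups of 4 tumors examined over 43 of the named genes, 1 tumor stood apart from the other 3 by Dixon's criterion, its gap to the nearest other being large for the range of the group. Chance alone gives about 1 in 20, or 4.3 of 86. Day 6 tumor 3 was the high one in 4 of them. Its Spp1 abundance was 6515 against 2189 to 2634 in the other day 6 tumors. Its Fstl3 abundance was 113.5 against 37.29 to 46.42, its Fam107a abundance 52.56 against 21.9 to 25.43, and its Cd33 abundance 226.1 against 143.0 to 156.0. Day 6 tumor 4 had a Sapcd2 abundance of 6.879 against 1.746 to 2.615. YAP1-on tumor 1 had the lowest Eno1 abundance, 2093 against 3157 to 3229.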

How the results depend on the processing

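The share of members under 1 kb from a gene start (37.3%) depended on the set: it was 60.1% for the 1000 highest members, 8.75% for every interval without overlap and 2.34% for members 1 kb or more from all 4 lists. The TEAD share of promoter windows (11.6%) was 6.25% for the 1000 highest, and 50% over the 2 windows of members 1 kb or more from all lists. The AP-1 share (5.45%) was 8.65% for every interval without overlap and 0.0% in those 2 windows. For genes nearest to members 1 kb or more from all 4 lists (19 tested), 26.3% were lower and 5.26% higher in day 6 tumors, 52.6% were lower in hbHep and 57.9% lower in FAH liver. With no filter on low values, 4.76% of genes nearest to late-distant members were higher in day 6 tumors. The background over all genes then was 5.7% lower and 6.55% higher in day 6 tumors, 15.5% and 17.6% in hbHep and 22.0% and 22.1% in FAH liver, over 30749 genes in place of 17953. With a gap of 5 kb, 7.5% of the late-distant genes were higher in hbHep. Leaving out 1 sample at a time, 29.3 to 34.8% of the late-distant genes were lower and 4.35 to 7.61% higher in day 6 tumors, the 4.35% coming without day 6 tumor 1, day 6 tumor 4 or YAP1-on tumor 1. The cause of these shifts was not tested. Same-numbered samples did not vary together (correlations of -0.23 to 0.045), so the numbers do not pair them. With the replicate block, 14% of the members' genes were lower and 13.1% higher in day 6 tumors, and 32.6% and 6.52% of the late-distant genes. Over 43 of the named genes and 602 values under alternatives, 590 kept their direction and side of the threshold and none reversed. Of the rest, 11 were Hnf4a losing its call and 1 was Aoah gaining it. Windows around members were not run. With 1 ATAC library a condition, no list difference could be set against replicate spread.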

Other observations

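Intervals outside chromosomes 1 to 19 and X entered no comparison. On chromosome Y the YAP1 ON list had 7078 intervals (0.853% of the list), day 14 had 16252 (1.59%), day 33 had 2815 (0.361%), day 64 had 5071 (0.659%) and liver had 4062 (0.711%).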
